A study of Mus musculus with 6 samples.

Results

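The Oas and Oasl genes encode the 2'-5' oligoadenylate synthetases of the mouse and their synthetase-like relatives. They were taken as the rows of the authors' deposited comparison that carry 1 of 9 gene names (Oas1a, Oas1b, Oas1c, Oas1d, Oas1g, Oas2, Oas3, Oasl1 and Oasl2), and all 9 were found among 17110 rows. The same 9 gene identifiers also had a row in the deposited count table. The family was selected on its fold changes and p-values in this same comparison, so those values are given as a description and test nothing about it.

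The series profiled polyadenylated RNA of TG2A, a mouse embryonic stem cell line, grown with serum and leukemia inhibitory factor. All samples carried a MERVL reporter, in which regulatory sequence of an endogenous retrovirus of the early mouse embryo drives a fluorescent protein; a small share of cultured stem cells switch it on. Cells with reporter signal (DsRed2+, 3 samples) were sorted from cells of the same culture type without it (DsRed2-, 3 samples), with replicates taken on different dates. The labels give no other treatment or allele and do not say whether the line is a single clone.

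The authors' deposited table gives 1 fold change per gene, does not name the groups compared and does not say which is the numerator. The 2 sorted groups are the only ones in the labels, so the table was read as their comparison, and every sign is given as deposited. A positive value therefore means higher in a numerator group that remains unnamed. The columns of the count table match no sample label, so the value of each library, the spread between libraries and the overlap of the groups are not analysed here. The precision of each value is the standard error (SE) of the authors' fit.

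As background, an oligoadenylate synthetase binds double-stranded RNA and joins ATP into short chains with 2'-5' bonds, called 2-5A. These chains activate RNase L, which cuts viral and cellular RNA. Most genes of the family are induced by interferon through transcription factors that bind an interferon-stimulated response element (ISRE). Embryonic stem cells are known for a weak interferon response.

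The promoters of members with different fold changes are shown first, because the ISRE is the sequence through which the family is best known to be switched on. RefSeq promoter windows (build GRCm38.p6, which is not the build named in the submitters' processing notes) were matched by symbol for 6 of the 9 genes, and the other 3 were Oas1b, Oas1d and Oas2. Each window holds 250 bases before and 50 after an annotated start. The 150 bases before the start are printed for 5 genes, 5′ to 3′ on the gene's strand, with matches to the ISRE core (GAAA, any 2 bases, GAAA) on either strand in capitals.
Oas1a, chr5:120907526-120907675, - strand: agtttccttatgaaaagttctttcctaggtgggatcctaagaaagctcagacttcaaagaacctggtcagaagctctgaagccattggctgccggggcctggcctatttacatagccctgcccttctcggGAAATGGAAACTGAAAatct
Oas1g, chr5:120887614-120887763, - strand: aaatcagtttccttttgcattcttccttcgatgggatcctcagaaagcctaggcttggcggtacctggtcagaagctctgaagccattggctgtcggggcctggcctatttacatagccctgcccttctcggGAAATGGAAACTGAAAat
Oas3, chr5:120777660-120777809, - strand: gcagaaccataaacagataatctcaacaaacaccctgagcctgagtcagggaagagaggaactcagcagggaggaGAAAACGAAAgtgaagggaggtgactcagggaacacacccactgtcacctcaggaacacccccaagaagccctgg
Oas1c, chr5:120812515-120812664, - strand: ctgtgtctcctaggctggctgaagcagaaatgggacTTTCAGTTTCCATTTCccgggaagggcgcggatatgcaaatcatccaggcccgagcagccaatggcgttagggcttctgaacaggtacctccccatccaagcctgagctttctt
Oasl2, chr5:114896784-114896933, + strand: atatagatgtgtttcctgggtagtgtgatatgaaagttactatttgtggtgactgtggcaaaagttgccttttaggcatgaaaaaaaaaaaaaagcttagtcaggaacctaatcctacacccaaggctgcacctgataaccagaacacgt

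The ISRE core occurred in the windows of 4 of the 6 matched genes, Oas1a, Oas1g, Oas3 and Oas1c. Over all genes, 3.44% of 32851 windows and 3.99% of 27025 genes had it. In Oas1a, overlapping matches GAAATGGAAA and GAAACTGAAA lay 20 to 11 and 14 to 5 bases before the start, and in Oas1g the same letters lay 18 to 9 and 12 to 3 bases before it. Over 294 aligned bases the windows of Oas1a and Oas1g were 88.8% identical. Oas3 had 1 match, GAAAACGAAA, 75 to 66 bases before the start, and Oas1c had 2 overlapping matches on the other strand, between 114 and 99 bases before it. Neither Oasl1 nor Oasl2 had the core in its window. A second element was the gamma-activated sequence TTCNNNGAA of interferon gamma target genes, which reads the same on both strands. It occurred in the Oas1a window alone among the 6 (TTCAAAGAA, 98 to 90 bases before the start). Over all genes, 8.3% of windows and 9.55% of genes had this element. A match is a run of letters and not a shown binding site, and a window without one says nothing of elements elsewhere.

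The family divided by sign. In the authors' deposited table, 7 of the 9 members had an adjusted p-value under 0.05, with 6 positive and 1 negative, while 30.5% of all rows passed in either direction, 14.6% in the positive and 15.9% in the negative direction. The 6 positive members, Oas1a, Oas1d, Oas1g, Oas2, Oas3 and Oasl1, had log2 fold changes from 1.46 to 2.86 in the authors' deposited table. The negative member was Oasl2, at -5.06. Oas1b and Oas1c did not pass. The median log2 fold change in the authors' deposited table was 1.67 over the 9 members and 0.0097 over all rows. In bulk RNA, a difference in the share of cells that express a gene and a difference in RNA per cell cannot be told apart.

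**Figure D1:**
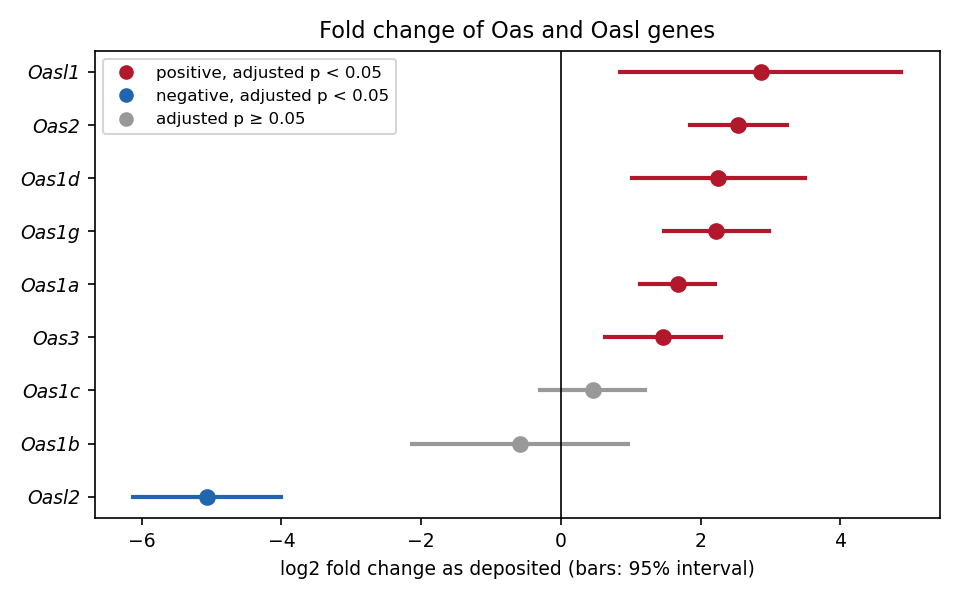
Log2 fold change of each Oas and Oasl gene in the authors' deposited table (x axis, points) with its 95% interval (bars), ordered by value (y axis, genes). The 6 red points lie between 1.46 and 2.86, the grey intervals of Oas1b and Oas1c span 0, and Oasl2 stands apart at -5.06.

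All 9 genes were expressed at a low level. Their mean normalized counts in the authors' deposited table, averaged over libraries, ran from 7.82 to 139.2, and all 9 lay under the median of all rows, 394.2. The 3 lowest, Oas1b, Oasl1 and Oas1d, had means under 20, a range in which 15.8% of 2715 rows passed in the authors' deposited table. Means of the remaining 6 lay between 50 and 150, where 38.0% of 2031 rows passed in the authors' deposited table. The SE of the members in the authors' deposited table ran from 0.28 for Oas1a to 1.03 for Oasl1, against a median of 0.18 over all rows.

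Levels can be compared between genes only per length. The mean over all libraries would rank genes by both groups at once, so the level was taken in each group: with equal numbers of libraries, the mean and the fold change of the authors' deposited table imply a mean for the numerator and for the denominator group. These were divided by the length of the longest coding transcript in GENCODE M21, and their spread over samples is not known. In the numerator group, the values implied by the authors' deposited table were highest for Oas1a (88.4 normalized counts per kb), Oas1g (55.5 per kb) and Oas1c (32.0 per kb), and lowest for Oasl2 (2.59 per kb). In the denominator group, the authors' deposited table placed Oasl2 first (86.5 per kb), followed by Oas1a (27.8 per kb) and Oas1c (23.4 per kb), with Oasl1 last (0.90 per kb). Oasl2 thus stood at opposite ends of the order in the groups, while Oas1a, an active synthetase, was first or next to first in both.

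The genes of the larger synthetases lay between these ends. Oas2 and Oas3 had 25.7 and 22.8 normalized counts per kb in the numerator group and 4.43 and 8.27 per kb in the denominator group, as implied by the authors' deposited table, so their order turned between groups. Oas1d, Oas1b and Oasl1 were at or below 13.8 normalized counts per kb in both groups by the authors' deposited table.

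**Figure D2:**
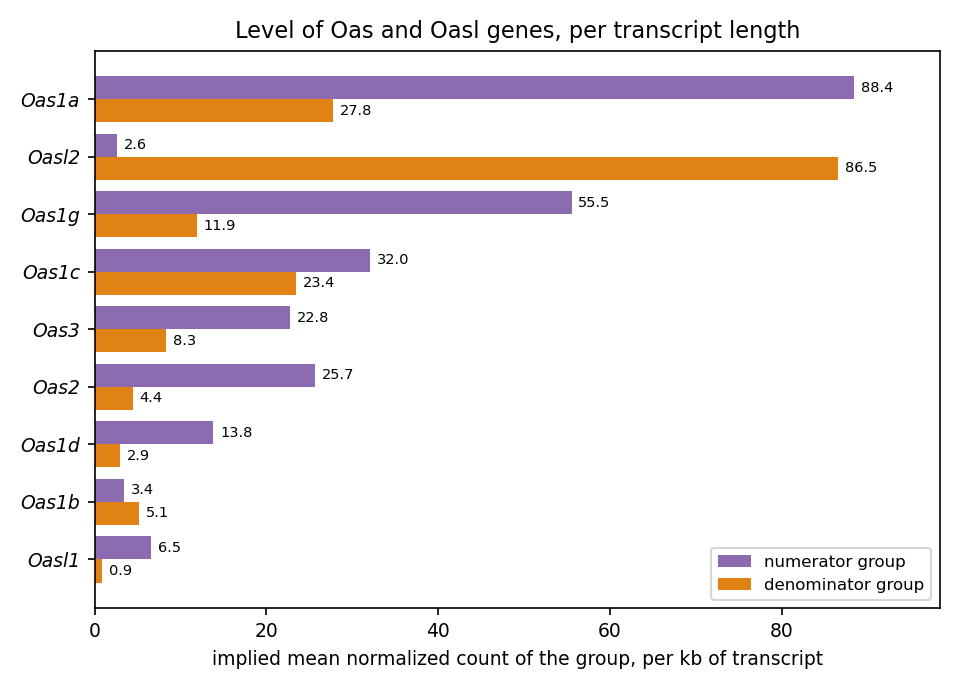
Mean normalized count per kb of transcript (x axis, bars from 0) implied for the numerator and the denominator group by the authors' deposited table, with GENCODE M21 transcript lengths, for each gene (y axis). Oasl2 has the longest denominator bar (86.5) and the shortest numerator bar (2.59), Oas1a has the longest numerator bar (88.4), and no error is drawn because values per library were not used.

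Oasl2 encodes a synthetase-like protein with ubiquitin-like repeats that retains synthetase activity in the mouse. In the authors' deposited table its log2 fold change (ENSMUSG00000029561) was -5.06 with an SE of 0.54, a 95% interval from -6.12 to -4.01 and an adjusted p-value of 3.75e-19, which is a 33.5-fold difference. It ranked 62nd from the most negative of the 17110 fold changes of the authors' deposited table. Before division by length, the implied mean normalized count from the authors' deposited table was 270.3 in the denominator group and 8.08 in the numerator group. By this arithmetic the numerator group held little Oasl2 RNA.

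Oasl1 also carries ubiquitin-like repeats but has no synthetase activity, and is known as a repressor of Irf7 translation. Its row lies next to that of Oasl2 in gene order, and its sign was opposite. Oasl1 (ENSMUSG00000041827) had in the authors' deposited table a log2 fold change of 2.86 with an SE of 1.03, a 95% interval from 0.85 to 4.87 and an adjusted p-value of 0.0207. This was the most positive value of the family and also the least precise, at a mean normalized count of 8.10 in the authors' deposited table. The implied group means from the authors' deposited table were 14.2 normalized counts in the numerator and 1.96 in the denominator group, both low. Over 872 aligned bases the coding sequences of Oasl1 and Oasl2 were 70.9% identical, and neither shared a stretch of 100 bases with any other gene.

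Oas1a and Oas1g encode active synthetases with a single catalytic unit. Oas1a (ENSMUSG00000052776) had in the authors' deposited table a log2 fold change of 1.67 with an SE of 0.28 and an adjusted p-value of 2.44e-08. Oas1g (ENSMUSG00000066861) had 2.22 with an SE of 0.38 and an adjusted p-value of 9.46e-08 in the authors' deposited table. From the SEs of the authors' deposited table, taken as independent although the genes were measured in the same libraries, Oas1g minus Oas1a was 0.55 on the log2 scale with a 95% interval from -0.37 to 1.48. This interval includes 0. All differences between members below were computed in this way, without adjustment for the number of pairs.

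These genes are near copies, so their values are not independent. Their coding sequences were 97.0% identical over 1100 aligned bases, and 40.9% of the 100-base stretches of the Oas1a transcript also occurred in Oas1g. Reads from such stretches could have been divided between them in the authors' counting. Taken as 1 gene, by the group means that the authors' deposited table implies, the pair had a log2 fold change of 1.86. This value lies between those of the 2 genes.

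Oas1d is known for its expression in oocytes. Oas1d (ENSMUSG00000032623) had in the authors' deposited table a log2 fold change of 2.25 with an SE of 0.63 and an adjusted p-value of 0.00197, at a mean normalized count of 16.9. Its nearest relative in coding sequence was Oas1c, at 87.1% identity over 1059 aligned bases. Oas1c (ENSMUSG00000001166) had a log2 fold change of 0.45 with an SE of 0.38 and an adjusted p-value of 0.411 in the authors' deposited table. The 95% interval ran from -0.30 to 1.20. Oas1d minus Oas1c was 1.80 on the log2 scale from the authors' deposited table, with an SE of 0.74 and a 95% interval from 0.35 to 3.24, which leaves out 0. Of the 100-base stretches of Oas1c, 4.47% were shared with the annotated gene Gm43069.

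Oas1b is the gene behind natural flavivirus resistance in mice and is a pseudogene in the reference strain, where GENCODE M21 lists a polymorphic pseudogene. Oas1b (ENSMUSG00000029605) had in the authors' deposited table a log2 fold change of -0.58 with an SE of 0.79 and an adjusted p-value of 0.641. With a mean normalized count of 7.82 in the authors' deposited table, its 95% interval was wide, from -2.12 to 0.97, and spanned 0. Oas1c minus Oas1b was 1.03 on the log2 scale from the authors' deposited table, with an interval from -0.69 to 2.75. This was the 1 pair with Oas1b whose interval included 0.

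Oas2 and Oas3 encode larger synthetases with repeated catalytic units, and Oas3 is known for its preference for long double-stranded RNA. Oas2 (ENSMUSG00000032690) had the smallest p-value among the positive members in the authors' deposited table, with a log2 fold change of 2.54, an SE of 0.35 and an adjusted p-value of 1.8e-11. Oas3 (ENSMUSG00000032661) had 1.46 with an SE of 0.42 and an adjusted p-value of 0.00285 in the authors' deposited table. Oas2 minus Oas3 was 1.07 on the log2 scale from the authors' deposited table, with a 95% interval from -0.0060 to 2.15 that just includes 0. Neither transcript shared a 100-base stretch with another annotated gene.

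Ordered by log2 fold change in the authors' deposited table, the family ran from Oasl2 through Oas1b, Oas1c, Oas3, Oas1a, Oas1g, Oas1d and Oas2 to Oasl1. For 7 of the 8 neighbouring pairs in this order, the 95% interval of the difference in the authors' deposited table included 0, the exception being Oasl2 and Oas1b. Over all 36 pairs it included 0 in 17 and left it out in 19, among them the pairs of Oasl2 with each other member. The members were chosen on these values, and neighbours in the order are close because they were sorted. These counts are therefore a description and test nothing about the family. At the threshold of 0.05, the member nearest to it on the inside was Oasl1 (adjusted p-value 0.0207) and on the outside Oas1c (0.411), both from the authors' deposited table.

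**Figure D3:**
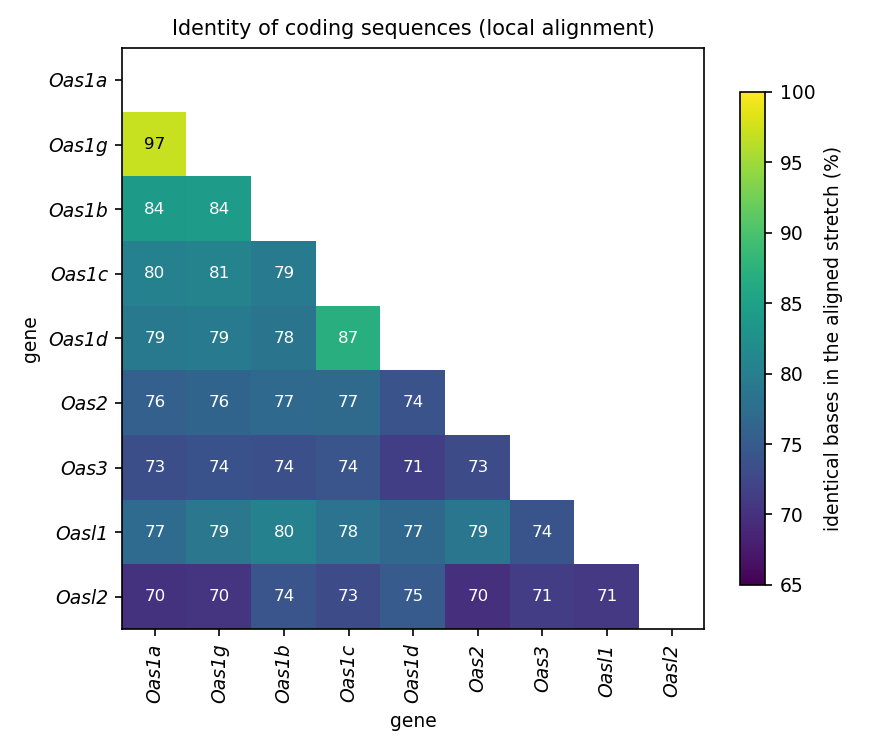
Identity of the coding sequences of each pair of members (both axes, genes), as the percent of identical bases in the best local alignment, from GENCODE M21 transcripts. Oas1a and Oas1g form the closest pair at 97.0%, Oas1c and Oas1d the next at 87.1%, and Oasl1 and Oasl2 reach 70.9%.

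GENCODE M21 lists 12 Oas and Oasl genes, and Oas1e, Oas1f and Oas1h are not analysed here. The 2 Oasl genes lie together and the 7 Oas genes form a second cluster on the same chromosome, 5. Among rows matched to GENCODE M21 by identifier, no other row lay within either cluster, and rows without a match could not be placed. Of the 5 nearest matched rows on each side of each cluster, 19 were examined to see where the fold changes of the family stop. In the authors' deposited table, 9 of these 19 neighbours passed, with 7 positive and 2 negative, and their median log2 fold change was 0.27. Over all rows, 30.5% passed, 14.6% positive and 15.9% negative. Most neighbours had a higher mean normalized count than any member, so calls among neighbours and among members differ in precision. The neighbours lay between -0.40 and 0.98 in the authors' deposited table, below every positive member that passed.

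Beside Oas2, the neighbour Dtx1, a ubiquitin ligase of the Notch pathway, had a log2 fold change of 0.61 with an SE of 0.29 and did not pass (adjusted p-value 0.106) in the authors' deposited table. Rasal1, a Ras GTPase activator next to it, had 0.98 with an SE of 0.32 (adjusted p-value 0.0107) in the authors' deposited table. On the Oas1d side, the first row was Ptpn11, the phosphatase SHP2, which was negative at -0.40 with an SE of 0.11 (adjusted p-value 0.00253) in the authors' deposited table. Trafd1, a feedback regulator of innate immune signalling, was also negative there, at -0.33 with an SE of 0.13 in the authors' deposited table. Around the Oas cluster, the remaining rows past the threshold, Rita1, Ddx54, Hectd4 and Naa25, lay between 0.29 and 0.49 in the authors' deposited table.

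Around the Oasl genes, 2 of 9 neighbours passed in the authors' deposited table, both positive, against 14.6% of all rows in that direction. Next to Oasl1, the row 2210016L21Rik had 0.23 with an SE of 0.13 and did not pass (adjusted p-value 0.204) in the authors' deposited table. Gm57857, at 0.30, and Rpl37rt, at 0.52, were the rows past the limit of 0.05 in the authors' deposited table. On both flanks of Oasl2 there was thus no other negative row past the threshold among these 9.

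**Figure D4:**
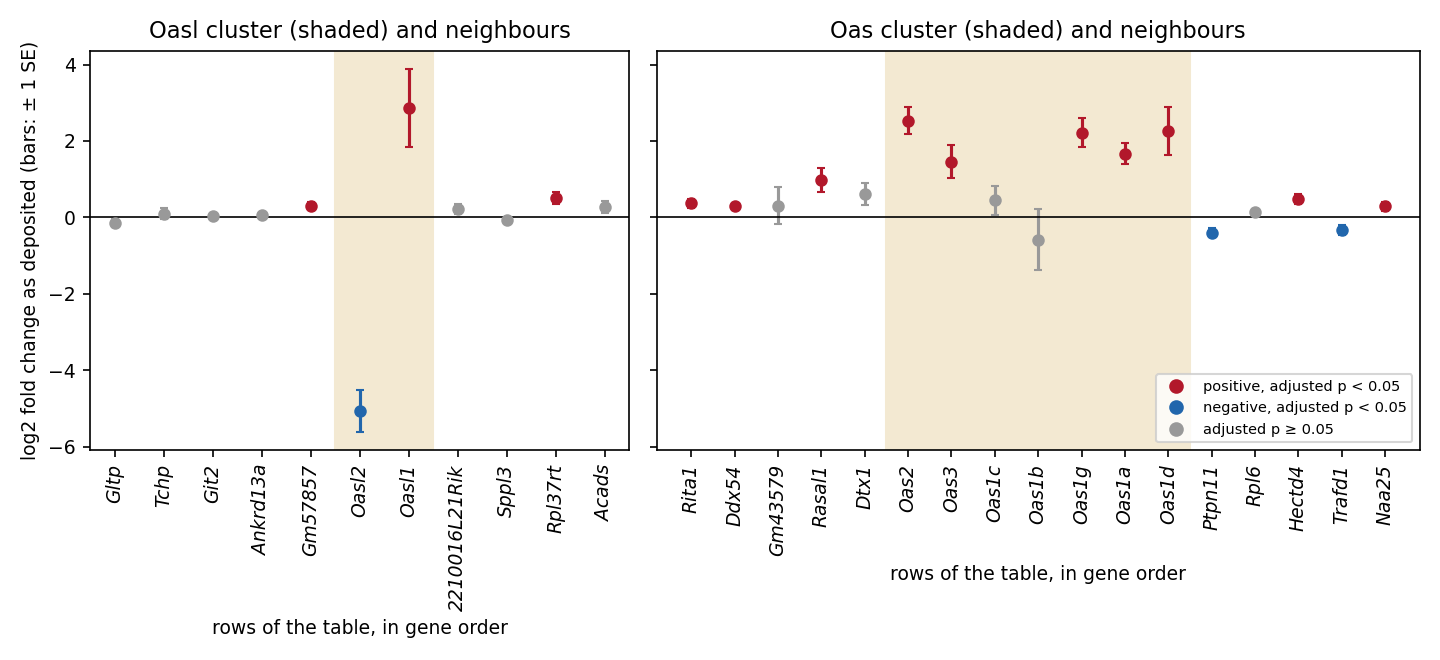
Log2 fold changes with ± 1 SE (y axis) of the rows of the authors' deposited table in gene order (x axis) around the Oasl cluster (left) and the Oas cluster (right), with the clusters shaded. The 19 neighbours lie between -0.40 and 0.98, and Oasl2 at -5.06 is the one point far below 0.

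Genes of the 2-5A pathway outside the family were followed from a list. RNase L itself is not analysed here. The others are Abce1, an inhibitor of RNase L, and Pde12 and Akap7, enzymes that degrade 2-5A. None of these 3 passed in the authors' deposited table, where Pde12 had a log2 fold change of 0.12 with an SE of 0.12, Abce1 had 0.032 with an SE of 0.13 and Akap7 had -0.11 with an SE of 0.25. The authors' deposited table lists unadjusted DESeq2 p-values of 0.338, 0.805 and 0.65 for them, with 0 under 0.05, and no other tool was run.

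Proteins with a nucleotidyltransferase fold related to that of the synthetases were also listed. Cgas, the DNA sensor that makes cyclic GMP-AMP, had a log2 fold change of 0.74 with an SE of 0.34 (adjusted p-value 0.0898) in the authors' deposited table. Ilf2, a subunit of an RNA-binding complex, and Zfr, which can bind Ilf2, had 0.15 with an SE of 0.088 and 0.047 with an SE of 0.080 in the authors' deposited table. These 3 genes were positive in sign and none passed, although Cgas had an unadjusted p-value of 0.0313 in the authors' deposited table.

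Sensors of double-stranded RNA share the ligand of the family, and they were listed with other proteins of RNA sensing. Of 9 listed genes, 2 were positive and 3 negative past the limit of 0.05 in the authors' deposited table. Over all rows, 14.6% were positive and 15.9% negative past it. The median log2 fold change of the list was 0.059. The 3 negative genes encode nucleic acid sensors, while neither of the 2 positive genes encodes one. Ifih1, the sensor MDA5, had -7.78 with an SE of 1.35 (adjusted p-value 1.19e-07) in the authors' deposited table. Its implied numerator mean was 0.37 normalized counts, so the size of this fold change rests on few counts in that group. Zbp1, a sensor of left-handed nucleic acid, had -2.45 with an SE of 0.48 (adjusted p-value 3.33e-06) in the authors' deposited table. Trim25, a ubiquitin ligase of the RIG-I pathway, had 0.51 with an SE of 0.11 (adjusted p-value 1.11e-05) in the authors' deposited table.

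Receptors and signalling proteins of interferon were negative in sign for 10 of 13 genes in the authors' deposited table. Of these listed genes with a row in the authors' deposited table, 1 was positive and 6 negative past the threshold, with a median log2 fold change of -0.39. Over all rows, 14.6% were positive and 15.9% negative past the threshold. Irf1, an activator induced by interferon gamma, had -1.69 with an SE of 0.25 (adjusted p-value 2.08e-10) in the authors' deposited table. Ifngr1, a chain of the interferon gamma receptor, and Jak2, the kinase bound to the other chain, had -1.29 with an SE of 0.20 and -1.64 with an SE of 0.26 in the authors' deposited table. Stat2 and Irf9, transcription factors that act together on the ISRE, did not pass, at 0.57 with an SE of 0.26 and 0.30 with an SE of 0.16 in the authors' deposited table.

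Other interferon-induced effectors spread in both directions. Of 10 with a row in the authors' deposited table, 2 were positive and 4 negative past the threshold, with a median log2 fold change of -0.87. The shares over all rows were 14.6% positive and 15.9% negative. Isg15, a ubiquitin-like modifier, had -7.83 with an SE of 1.15 (adjusted p-value 1.91e-10) in the authors' deposited table. The implied numerator mean of Isg15 was 0.68 normalized counts, so the size of its fold change rests on few counts in that group. Ifitm1 and Ifitm2, membrane proteins that block virus entry, had 0.86 with an SE of 0.085 and 0.91 with an SE of 0.097 in the authors' deposited table. The ISRE core lay in a promoter window of 4 effectors and 3 genes of the RNA sensing list. Among these, Isg15 and Ifih1 were negative and Ifitm2 positive past the limit of 0.05 in the authors' deposited table. The rest of them did not pass. Of the 3 receptor and signalling genes with the core, 2 passed and both were negative. The remaining gene, Stat2, was positive in sign and did not pass. The core thus occurred in windows of genes of both signs, since Oas1a, Oas1g and Oas3 were positive.

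**Figure D5:**
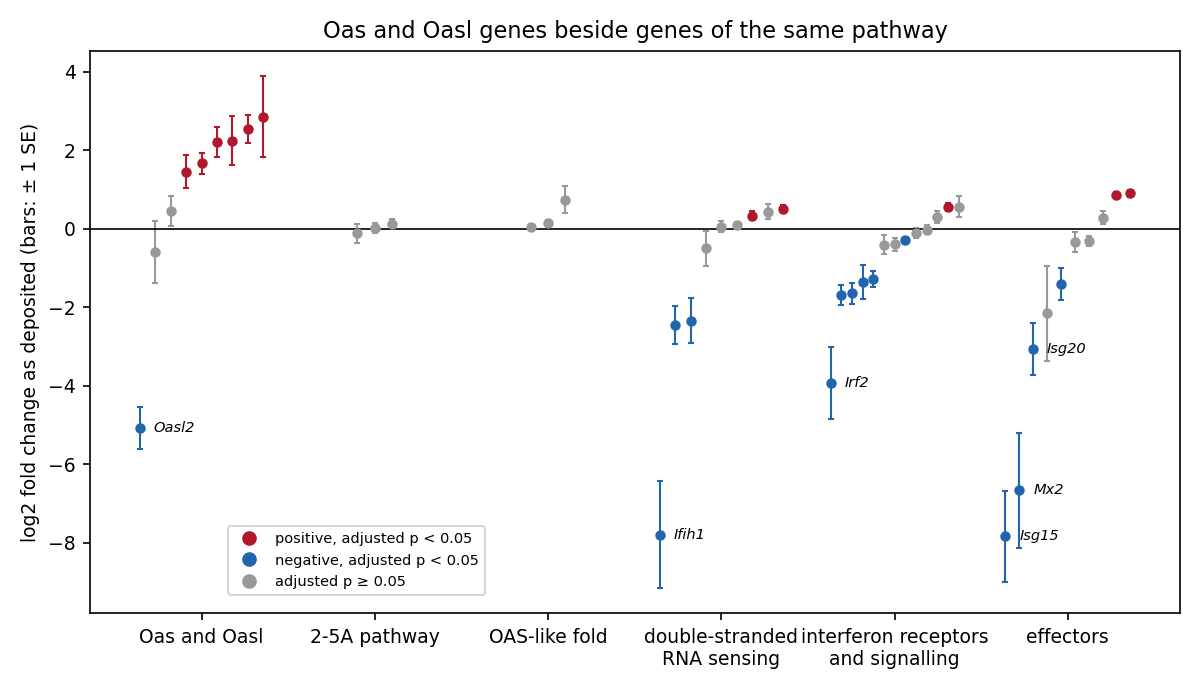
Log2 fold changes with ± 1 SE (y axis) from the authors' deposited table for the Oas and Oasl genes and 5 lists of related genes (x axis), each point 1 gene. The 6 positive family members between 1.46 and 2.86 lie above every listed gene past the threshold, the highest of which is Ifitm2 at 0.91. Oasl2 lies among the strongly negative genes Ifih1, Isg15, Mx2 and Irf2, whose implied numerator means were at or below 1.69 normalized counts.

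Markers of cell types were read in the same table. Pou5f1, which defines pluripotent cells, had a mean normalized count of 32810 in the authors' deposited table. All 7 pluripotency markers with a row were positive in sign in the authors' deposited table, with mean normalized counts from 2822 to 38163, and 5 passed. Of 8 listed fibroblast markers, 5 had a row. Of these 5, 3 passed and were negative in the authors' deposited table, at mean normalized counts from 10.1 to 94.2 over the 5. White blood cell markers had a row for only 4 of 8 listed genes. Of these 4, 3 passed and were positive in the authors' deposited table, at mean normalized counts from 11.0 to 166.0 over the 4. Beside these marker counts, 14.6% of all rows were positive and 15.9% negative past the threshold. Ptprc, the defining marker of white blood cells, is not analysed here. The part of such cells in the fold changes of the family was not tested.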

How the data were processed

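Bulk RNA was sequenced from 3 DsRed2+ and 3 DsRed2- samples. The submitters' processing notes list FastQC 0.12.1, Trimmomatic 0.39, STAR 2.7.11b, RSEM 1.3.3, DESeq2 1.45.3 and the build GRCm39, without their roles. Per the file headers, the authors' deposited comparison table has the columns of DESeq2. Its mean normalized count is a signal averaged over libraries by the authors, its fold change and SE are on the log2 scale as deposited, its statistic is a score deposited by the authors that equals the fold change divided by its SE within 5.77e-07, and its p-value and adjusted p-value are used as deposited. The model formula, the groups and the reference group are not given in the sources used here. The 6 count columns match no sample label and were not used, so depth per library is unknown here. The design's count test by edgeR was therefore not run.

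The members and lists were chosen with earlier results of these data known. Named are all members, the 2-5A pathway and OAS-like fold genes and neighbours past the threshold, except items that are not reported here, and at most 3 genes with the smallest p-values of each other list; Stat2, Irf9, Dtx1, 2210016L21Rik, Mx2 and Irf2 were named after their values were seen. Intervals are the fold change ± 1.96 SE (95%, normal). Gene order, transcripts and coding sequences came from GENCODE M21 (GRCm38), matched by identifier for 16795 of 17110 rows, and promoters from RefSeq (GRCm38.p6). Local alignments used Biopython 1.88. Replicates came from different dates, but p-values rest on the authors' fit. The adjustment and the motif search were tested on simulated data. Alternatives were a stricter adjusted p-value or fold change, a minimum mean count, a recomputed adjustment, other centres, fewer neighbours and a wider motif.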

Additional observations from a re-analysis of the deposited data

How the results depend on the processing

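No paired analysis was possible because no column of counts matches a sample and the authors' deposited table holds no values per sample. For the same reason the fits without each replicate, with other size factors and without a count filter were not run, and whether 1 library decides a value is not answered here. Protein identity was not run, and coding sequences were compared instead. Depth limits Oas1b, Oas1d and Oasl1 most, with mean counts under 20. Across the 9 members, 59 values under an alternative kept direction and call and 1 was weaker, Oasl1 at an adjusted p-value limit of 0.01. Every alternative reused the deposited fold changes and SEs, so most of this agreement was fixed in advance. Only the other centres could change a direction, and they shifted values by 0.0097 and 0.093 on the log2 scale. Stricter limits could not add a call. Where rows had a mean count of 50 or more, 5 of 6 remaining members passed. The median of the members lay between 1.57 and 1.66 under the other centres, the minimum mean count and, chosen after seeing the data, Oas1a and Oas1g as 1 gene. Beyond a log2 fold change of 1 in size, the pathway genes past the threshold in the positive direction dropped from 3 to 0. With the minimum mean count those in the negative direction went from 9 to 5, with fewer genes tested. With 3 rows on each side, 4 of 11 neighbours passed, against 9 of 19. The window count of the ISRE stayed at 4 with a spacing of 2 or 3 bases.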
